A study of Homo sapiens with 2 samples.

Results

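The regions described here are the 228 peaks on chromosome 9 in a list of 4201 genomic regions that were enriched in a SOX4 chromatin immunoprecipitation (ChIP-seq, sequencing of the DNA recovered with a protein). They were all rows of the list on that chromosome, whatever their score, and made up 5.43% of it (exact Clopper-Pearson 95% interval 4.76 to 6.16%). The cells were LN229, an established human glioblastoma line, and had been transfected with a plasmid for SOX4 carrying a Flag and an HA tag. A second library came from LN229 cells transfected with a plasmid for GFP carrying the same tags, and anti-Flag antibody was used in both. Each group had 1 library, the peak list belongs to the SOX4 library, and no values of the GFP library were analysed here. It was therefore not tested whether any region below was also enriched in GFP cells. The design text names prostate cells, while the title and the sample labels name glioblastoma cells, which were followed.

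SOX4 is a transcription factor of the SOX family, which binds DNA through an HMG box and bends it, and it is known from progenitor cells and from many tumours. Chromosome 9 is known for a large block of satellite heterochromatin beside the centromere on the long arm, in band 9q12, whose size varies between people. Stretches of near-identical duplicated sequence lie on both sides of this block. Short reads from such copies often cannot be assigned to 1 place, and the labels do not say how reads of this kind were handled. The comparison was between stretches, in hg19 coordinates counted from 1: the distal short arm (peak midpoints below 38 Mb), the middle stretch from 38 to 72 Mb, which holds the centromere, the 9q12 block and their duplications, and the distal long arm (above 72 Mb). No genome or annotation of hg19 was at hand, so no peak was assigned to a gene, exon, intron or promoter, and no sequence is shown.

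Chromosome 9 peaks were gathered in the middle stretch. It held 193 of the 228 peaks (84.6%, exact 95% interval 79.3 to 89.1%) in 24.1% of the chromosome up to its last peak. The distal short arm held 16 peaks and the distal long arm 19. The density in the middle stretch was 5.68 peaks per Mb (exact Poisson 95% interval 4.90 to 6.54). It was 0.42 per Mb (0.24 to 0.68) in the distal short arm and 0.27 per Mb (0.17 to 0.43) in the distal long arm. The middle stretch was thus 17.4-fold denser than both distal arms together (95% interval 12.1 to 25.7), while the 2 arms differed by 1.53-fold with an interval that includes 1 (0.74 to 3.14). These intervals cover counting error in 1 library and treat neighbouring peaks as independent, which they are not.

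How peaks were counted set the size of that difference. Peaks at most 100 kb apart were chained. The 193 middle peaks formed 18 chains and the 35 distal peaks formed 31. With each chain counted once, the middle stretch was 1.83-fold denser, and the interval (0.96 to 3.37) includes 1. When peaks at most 5 kb apart were joined, 49 middle and 34 distal regions were left, a 4.54-fold difference (2.87 to 7.25). The contrast in number therefore lay mostly in how many peaks stood side by side. A neighbour within 5 kb was present for 167 of the 193 middle peaks (86.5%), against 2 of the 35 distal peaks. This share was not computed for other chromosomes, so it is not shown to be particular to this stretch. Chains of at least 10 peaks held 60.9% of the whole list and 88.6% of the middle peaks. The median distance to the nearest peak was 0.533 kb in the middle stretch and 0.84 Mb in the distal arms. Like the 17.4-fold value, the 1.83-fold and 4.54-fold values count a 19.7 Mb interval without a peak, described below, in the middle length. Leaving it out would raise both, and they were not computed that way.

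**Figure D1:**
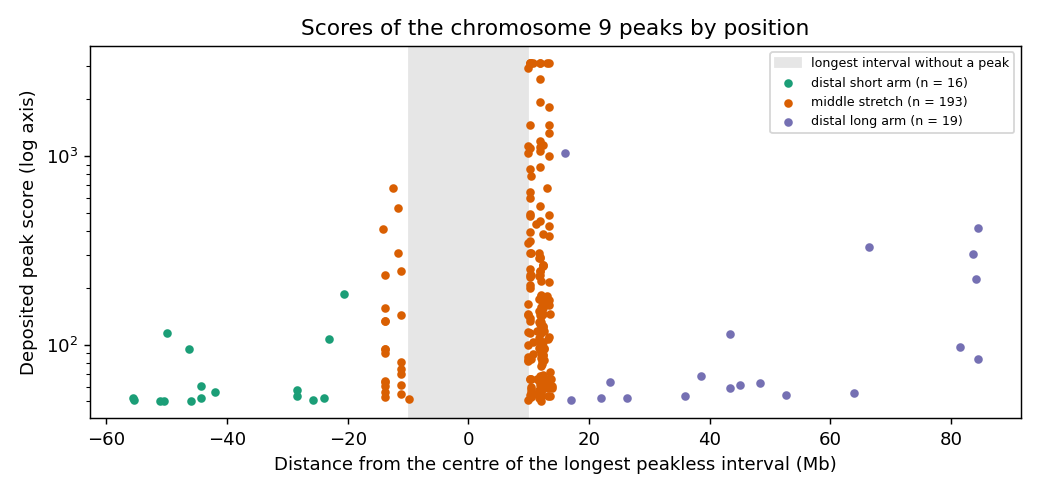
Deposited score (log axis) of each of the 228 chromosome 9 peaks against its distance in Mb from the centre of the longest interval without a peak (grey). Points are single peaks of 1 library, coloured by stretch. The high scores stand in a narrow band just after the interval, and both distal arms are sparse with mostly low scores.

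Within the middle stretch the peaks were unevenly placed. No peak lay from 46761421 to 66454697, an interval of 19.7 Mb and the longest on the chromosome. By general knowledge the centromere and the 9q12 block lie here and are largely unsequenced in hg19. The gaps of that build were not located, so how much of the interval was open to peaks was not tested. Before it, on the short-arm side, 24 peaks lay in 8.76 Mb. After it, on the long-arm side, 169 peaks lay in 5.55 Mb, which is 30.5 per Mb against 2.74 per Mb, an 11.1-fold difference (7.23 to 17.8). This split was made after the peaks were seen. The 24 peaks of the short-arm side were still 8.38-fold denser than the distal arms (4.77 to 14.5), and with the interval left out of the length, the whole middle stretch was 41.3-fold denser (28.7 to 61.01). The 3 fullest 1 Mb bins of the chromosome, 66 to 67, 68 to 69 and 69 to 70 Mb, held 47, 62 and 43 peaks, together 66.7% of all its peaks.

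The edges of the middle stretch fell in empty ground. The last peak below 38 Mb ran from 35913146 to 35914560 with a score of 186, and the first above it from 42415750 to 42416617 with a score of 412. At the other edge, the last peak before 72 Mb ran from 70414559 to 70415111 with a score of 58.9, and the next from 72653008 to 72653962 with a score of 1033. Moving the edges to 40 and 70 Mb or to 36 and 74 Mb left the fold within its interval.

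The score is the value the authors deposited for each peak. Its scale is not stated, so it serves to order and sort peaks within the list, and no ratios of it are given. Middle peaks scored higher than distal peaks: their median was 134 (quartiles 71.3 and 305), against 52.8 (51.1 and 69.2) in the distal short arm and 63.3 (54.6 and 168) in the distal long arm. The 2389 peaks in clusters (chains of at least 10 peaks) on other chromosomes had a median of 112 (quartiles 68.02 and 262). High scores were thus not particular to this stretch. In the whole list 39.7% of peaks scored 100 or more. The share was 62.2% in the middle stretch (120 of 193, exact 95% interval 54.9 to 69.04%) and 25.7% in the distal arms (9 of 35, 12.5 to 43.3%). In the clustered peaks of other chromosomes it was 55.3%. The intervals treat neighbouring peaks of 1 library as independent, which they are not, so they do not test the difference between the stretches. Scores reached 3100 in 2.45% of the list, in 9 middle peaks (4.66%, exact 95% interval 2.15 to 8.67%) and in 0 distal peaks. The intervals of the middle and the distal share both include 2.45%, so these counts set neither stretch apart from the list. At the low end, 18 of 35 distal peaks scored under 60, against 25 of 193 middle peaks. These shares, 51.4% and 13.0%, stand beside 32.4% in the whole list. The lowest scores were 50.09 in the middle stretch, from 68698497 to 68699072, the same in the short arm, from 6207264 to 6207762, and 51.03 in the long arm, from 73649519 to 73650162, so both kinds of stretch reached down to the bottom of the list.

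Widths followed the same order. The median middle peak was 1234 bp wide (quartiles 816 and 2304 bp), against 572 bp (498.5 and 692.5 bp) in the distal short arm and 657 bp (605 and 973.5 bp) in the distal long arm. Clustered peaks of other chromosomes had a median width of 1091 bp (quartiles 738 and 1983 bp). No distal peak exceeded 1855 bp, and 57 middle peaks (29.5%) did, up to 15994 bp. In total the middle peaks covered 421 kb, 94.02% of the peak-covered length of the chromosome and 1.24% of the stretch, while the distal peaks covered 26.8 kb, 0.025% of the arms.

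Among peaks of like width, the middle scores were not the higher in every class. Under 700 bp the median score was 56.4 for 26 middle peaks and 52.8 for 22 distal peaks. From 700 to under 1000 bp it was 70.5 for 48 middle peaks and 88.9 for 6 distal peaks, and from 1000 to under 2000 bp it was 144 for 64 and 222 for 7. In these last 2 classes the distal median was the higher, over few peaks. The class of 2000 bp or more had 55 middle peaks, with a median score of 676, and 0 distal peaks. On other chromosomes the median in this class was 542 for 590 clustered peaks. It was 2228 for 67 peaks outside clusters, without Y. Across the peaks of each stretch, which come from 1 library and are not independent, the Spearman correlation between width and score was 0.92 for 193 middle peaks, 0.72 for 16 short-arm peaks and 0.75 for 19 long-arm peaks.

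**Figure D2:**
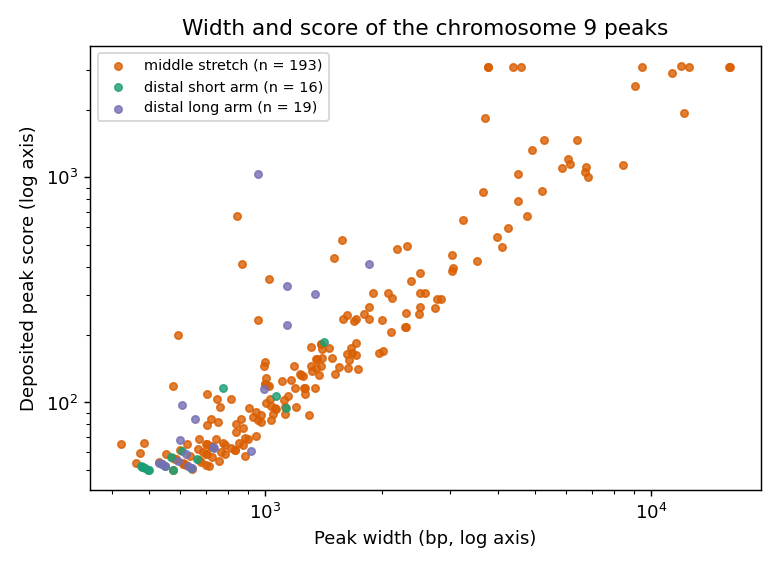
Width in bp against deposited score for the 228 chromosome 9 peaks, both on log axes, with 1 point a peak and colours by stretch. Middle peaks reach 15994 bp and a score of 3118.25, while distal peaks end at 1855 bp and, with 1 exception at a score of 1033, at 413.

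Chains with 10 peaks or more are named clusters here, and chromosome 9 held 8 of them with 171 peaks, 75.0% of its peaks (68.9 to 80.5%), against 60.9% of the whole list. All 8 lay in the middle stretch, 1 before the long interval and 7 after it. The cluster before it ran from 42719692 to 42831470 with 12 peaks, which formed 2 groups about 80.5 kb apart. Its scores ran from 52.8 to 233 with a median of 92.6, and the highest belonged to the peak from 42818672 to 42819627. None of its peaks was wider than 1511 bp.

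The first cluster after the interval ran from 66454698 to 66515613. It held 13 peaks, which covered 59.6% of its span, and its highest score, 2911.9, was that of an 11338 bp peak from 66458380 to 66469717. The last 6 peaks, on the side away from the interval, scored at most 116. The next cluster, from 66768063 to 67001432, held 35 peaks with a median score of 234 and 4 of the 9 peaks at 3100 or more. Among them was the highest of the chromosome, 3118.25, from 66789577 to 66801500.

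The cluster from 68354592 to 68505508 was the most continuous. Its 35 peaks covered 75.4% of 151 kb, a share that ranked 5 among the 82 clusters of the list, and the median distance between neighbours was 539.5 bp. Its highest-scoring peak ran from 68423545 to 68439408, at 3100 and 15864 bp, next to another of 3100 from 68413166 to 68422624. Only 164 kb further on, the cluster from 68669054 to 68744215 looked different. It had the closest packing of the 8 clusters, 26 peaks in 75.2 kb or 34.6 per 100 kb, but its scores stopped at 217, in the peak from 68723207 to 68725510, and its widest peak was 2304 bp. The median scores of these 2 neighbours were 231 and 118.

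**Figure D3:**
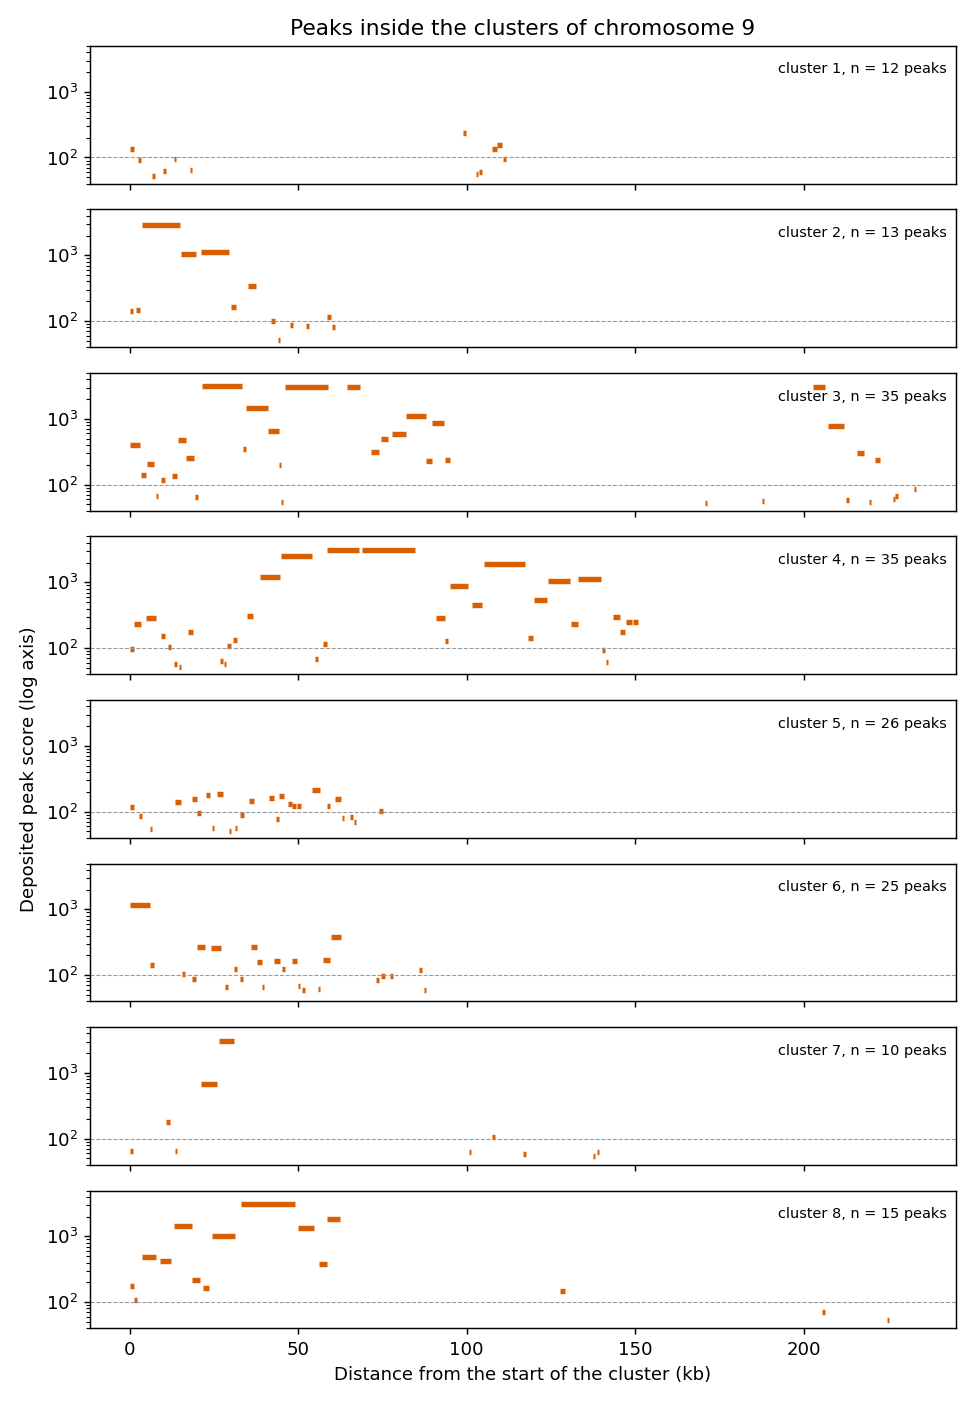
The 8 clusters of chromosome 9 in order of position. Each bar is 1 peak, drawn to its width in kb from the start of its cluster and at its deposited score (log axis), with a dashed line at a score of 100. Clusters 3 and 4, with 35 peaks each, hold long stretches of wide, high peaks, and in cluster 5, with 26 peaks, all lie under 217.

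The cluster from 68995550 to 69083605 had a median score like that of the low one, 119 over 25 peaks, but reached higher. Its first peak, from 68995550 to 69001703, scored 1150, and the next highest, from 69055256 to 69058292, scored 384. The smallest cluster, from 69680852 to 69820228, had 10 peaks with a median score of 65.04, yet contained a 4370 bp peak at 3100 from 69707446 to 69711815. The last cluster, from 69948057 to 70173351, held 15 peaks with the highest median of the 8, 376, which ranked 4 among the 82 clusters of the list. Its top peak, from 69981172 to 69997165, was the widest on the chromosome at 15994 bp and scored 3100. For the 74 clusters on other chromosomes, the median of the cluster medians was 114 (quartiles 85.5 and 157). The chromosome 9 clusters with medians of 92.6 and 65.04 fell below it, and all the others fell above it.

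The 10 highest-scoring peaks of chromosome 9 all lay in 3.96 Mb after the long interval. Besides those named above, they were a 12505 bp peak from 66814293 to 66826797, a 4603 bp peak from 67316837 to 67321439, and peaks from 66970675 to 66974451 and from 66832682 to 66836450, all scoring 3100. The last 2 were 3777 and 3769 bp wide. In all, 4 of the 9 peaks at 3100 or more were narrower than 5 kb. Peaks within 20% of the width of these 4 had median scores from 555 to 748. At most 1 peak of like width scored higher than each of them, but only 3 peaks of the whole list scored above 3100. That count was thus nearly fixed in advance, and peaks of like width tied at 3100 were left out of it. A score of exactly 3100 was shared by 100 peaks of the list, 8 of them on chromosome 9, so the order among those is set by width alone. The 4603 bp peak belonged to a chain of only 3 and was the single chromosome 9 peak at 3100 or more outside a cluster.

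The middle stretch also held 22 peaks outside clusters, with a median score of 84.7 and 10 at 100 or more. These 10 were a share of 45.5% (exact interval 24.4 to 67.8%). The interval includes the 39.7% of the whole list. It lies above the 13.9% among peaks outside clusters on other chromosomes without Y. It treats neighbouring peaks of 1 library as independent, which they are not, so no difference was tested. On the short-arm side, 2 narrow peaks without a neighbour within 100 kb scored high. One, from 44070301 to 44071145, was 845 bp wide with a score of 674, rank 2 of 1275 peaks that differed from it by at most 20% in width (median score 69.2). The other was the peak from 42415750 to 42416617 beside the 38 Mb edge, with a score of 412, which ranked 7 of 1210. Another isolated peak there, from 44992139 to 44993722, scored 529 and ranked 14 of 474. These 3 were singled out after their values were seen.

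The distal arms held single, weak peaks. Of the 35, 27 (77.1%) had no other peak within 100 kb, against 19.2% in the whole list and 48.9% of the dispersed peaks (those outside clusters) of other chromosomes without Y. Chromosomes 7 and 20 supplied 453 and 194 of these 1584 dispersed peaks, at 2.85 and 3.12 per Mb. The comparisons of this paragraph were not repeated without them. A score under 60 was held by 51.4% of the distal peaks and 56.0% of those dispersed peaks. In all, 26 distal peaks scored under 100, with 97.7 the highest of these. The share at 100 or more was 25.7% there and 13.9% among the 1584 dispersed peaks (12.2 to 15.7%), and the interval of the first (12.5 to 43.3%) includes the second. The median score was 59.2 in the distal arms (95% interval 53.2 to 84.2) and 58.3 in the dispersed peaks elsewhere. The median width was 631 bp (575 to 736 bp) against 670 bp. In both measures the interval of the distal arms includes the value of the other chromosomes.

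In the distal short arm, the peak from 35913146 to 35914560 was the strongest, with a score of 186 and 1415 bp. It was followed by the peak from 6594342 to 6595119 (score 116), the peak from 33522228 to 33523291 (score 107), the peak from 10324765 to 10325897 (score 94.5) and the peak from 12254572 to 12255178 (score 60.7). The other 11 peaks of this arm scored under 60. No peak lay from 14584606 to 28168612, over 13.6 Mb.

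In the distal long arm, 1 peak stood apart. From 72653008 to 72653962, 2.24 Mb past the last middle peak, a 955 bp peak scored 1033, rank 1 of 1013 peaks of like width (median score 85.7). No other distal peak of chromosome 9 scored over 413. With the outer edge at 74 Mb this peak counts with the middle stretch. The next highest were the peak at the end of the list for this chromosome, from 141121842 to 141123696 (score 413), the peak from 123022515 to 123023651 (score 330), the peak from 140221898 to 140223243 (score 302) and the peak from 140739505 to 140740643 (score 222).

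Of these 5, 3 lay close to the end of the chromosome. The last 1 Mb before the end of the last peak held 4 peaks, 3 of them at 100 or more, and the remaining one, from 141082547 to 141083203, scored 84.2. The other 15 long-arm peaks were spread over 68.1 Mb, or 0.22 per Mb. The share at 100 or more was 25.7% in the distal arms and 39.7% in the whole list. This window was chosen after the peaks were seen. It was set by the last peak, which scored 413, so it held at least 1 such peak by construction. Its 4 peaks are too few to set this end of the arm apart.

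Set against other chromosomes, the distal arms lay in the middle of the order of densities. They carried 0.33 peaks per Mb (0.23 to 0.45), 11 of 22 other chromosomes without Y carried more dispersed peaks per Mb, and 11 carried fewer. Pooled, the other chromosomes had 0.56 per Mb, so the distal arms were at 0.58-fold (0.40 to 0.81). That difference rested on chromosomes 7 and 20: without them the others had 0.36 per Mb and the fold was 0.91, with an interval (0.63 to 1.27) that includes 1. Dispersed peaks of the other chromosomes include those beside centromeres, while the distal arms have none, so the 2 sets are not fully alike. The 22 dispersed peaks of the middle stretch came to 0.65 per Mb, 1.98-fold the distal arms (1.11 to 3.47). The longest interval without a peak is counted in that length, and leaving it out would raise this fold. By number of peaks chromosome 9 ranked 5 among the 24 chromosomes, and by number of peaks at 3100 or more it tied with chromosome 2 at rank 2, with 9 each. Its 9 were 3.95% of its peaks (exact interval 1.82 to 7.36%). That interval includes the 2.45% of the whole list, so the count does not set chromosome 9 apart from the list.

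**Figure D4:**
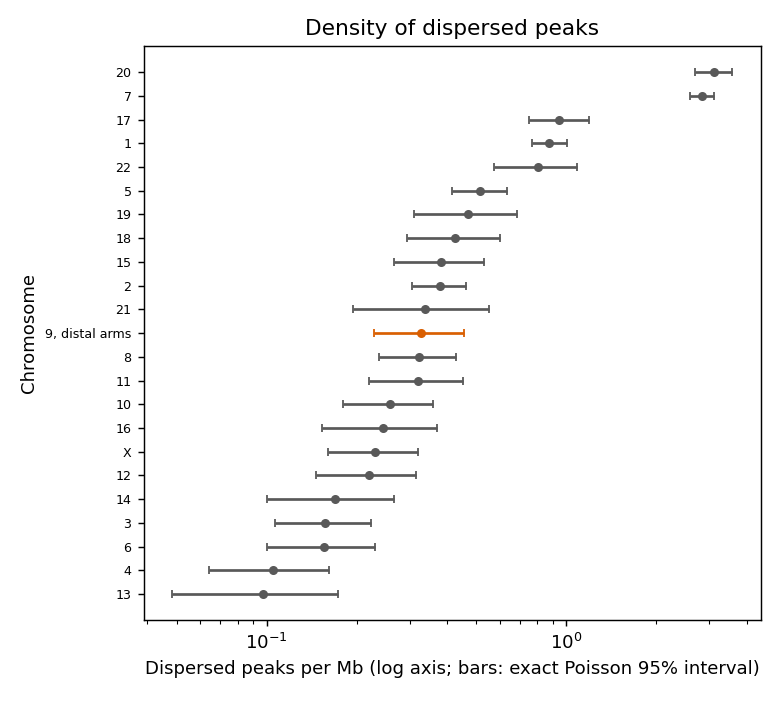
Dispersed peaks per Mb (log axis) for each chromosome except Y, with exact Poisson 95% intervals for counting error in 1 library. For chromosome 9 only the distal arms are shown (orange), at 0.33 per Mb, in the middle of a range from 0.097 to 3.12 per Mb.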

How the data were processed

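Of 2 ChIP-seq libraries, only the SOX4 library had a deposited file used here, its peak list. Per the submitters' processing notes, Bowtie 0.12.7, MACS and hg19 were used. Not given in the labels or the file are the MACS version and settings, duplicate handling and the role of the GFP library. The score per peak is the authors' deposited value, with no stated scale. The file holds no read count, so depth is unknown, and p-values between conditions were not possible.

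Starts were counted from 1. Lengths ran to the end of the last peak and include unsequenced bases. Chains joined peaks at most 100 kb apart, and a cluster had at least 10 peaks. Shares have Clopper-Pearson intervals, densities Poisson intervals, and folds an interval derived from that of the share, all at 95%. Intervals of medians come from order statistics. The code was tested on simulated data. The named peaks were the 10 highest scores (ties by width), the 5 highest in each distal arm, those beside each edge, the lowest of each stretch, and each cluster with its top peak. Others were singled out after their values were seen. The stretches, members and rules were chosen with earlier results of these data known. Computation used SciPy 1.17.1, NumPy 2.4.6 and pandas 2.3.3 in Python 3.11.15, with figures drawn in matplotlib 3.10.9.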

Additional observations from a re-analysis of the deposited data

How the results depend on the processing

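Each of 44 alternative values was set against the 95% interval of its main value. In all, 24 stayed inside and 20 moved out. No paired analysis was possible because there was only 1 library a group. At or above the median score of the list and at a score of at least 100, the fold density of the middle stretch over the distal arms rose from 17.4 to 37.3 and 42.01, its share of peaks from 84.6% to 92.2% and 93.02%, its median score from 134 to 181 and 234 (distal arms from 59.2 to 151 and 222), and its median width from 1234 to 1606.5 and 1768.5 bp (distal arms from 631 to 1098.5 and 1137 bp). Medians rise by construction when low scores are left out. The fold was 4.54 with peaks at most 5 kb apart joined, 1.83 with each chain counted once and 41.3 without the longest peakless interval. Joining lowered the share in the middle stretch to 59.04% and the share in clusters from 75.0% to 0%. That share was 64.04% at a chaining distance of 50 kb and 53.1% with a minimum of 20 peaks. The fold of the distal arms against other chromosomes went from 0.58 to 0.91 without chromosomes 7 and 20, an alternative added after the data were seen. Moving the edges, or leaving out peaks at 3100 or more, changed none of the values tested beyond its interval. Without a known depth, a stretch that holds no peak cannot be called unbound.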

Other observations

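Peaks of equal width and equal score were common in the list. Of all 4201 peaks, 1723 (41.01%) scored under 3100 and shared both values with another peak anywhere in the list. On chromosome 9 this held for 60 peaks, 19 of 35 in the distal arms (54.3%) and 41 of 193 in the middle stretch (21.2%). Among the dispersed peaks of other chromosomes without Y it held for 63.4%. Of the 60, 6 had a match on chromosome 9 itself. One of these pairs was adjacent. In the cluster from 68669054 to 68744215, the peaks from 68717311 to 68718308 and from 68718756 to 68719753 were both 998 bp wide with a score of 121.04, and 447 bp separated them. Scores under 60 were held by 51.4% of the distal peaks, 13.0% of the middle peaks, 56.0% of those dispersed peaks and 32.4% of the list. The shares with equal values stood in the same order, and they were not compared at like score or width. The sequences were not compared, and no difference between these shares was tested.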
